A study of Chlamydomonas reinhardtii with 9 samples.

Results

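FRE1, FOX1 and FTR1 encode the reductase, the ferroxidase and the permease of reductive iron uptake in the green alga Chlamydomonas reinhardtii. They were chosen by gene name from the annotation in the deposited table, and 1 row carried each name, so the 3 genes make up 3 of 17301 transcript rows. Cells of strain CC-4532 (2137) had been grown in continuous light on Tris-acetate-phosphate (TAP) medium to mid-logarithmic phase, spun down, washed in TAP without Fe-EDTA and put into new medium of the same kind. RNA was sequenced at 9 times: at the start (0 h), in the early hours (0.5, 1, 2 and 4 h) and later (8, 12, 24 and 48 h). Each time has 2 columns of values that the design text calls biological duplicates, although 1 sample is registered per time. All 9 groups had been through the same spin, wash and iron removal, the 0 h group included. No group was supplied with iron at any time, so the age of the culture, the transfer and the loss of iron cannot be told apart. Each value comes from a whole culture, in which fewer cells that make a transcript and less of it per cell cannot be told apart.

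Iron in aerated water is mostly ferric and poorly soluble, and reductive uptake frees it in steps at the cell surface. A membrane reductase turns ferric chelates into ferrous iron. A multicopper oxidase oxidizes that iron again, and a permease that works with the oxidase carries it through the plasma membrane. In yeast the oxidase and permease work as a pair, and in Chlamydomonas the corresponding proteins are FOX1 and FTR1. The oxidase needs copper, which links iron uptake to copper supply.

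All 3 transcripts were higher than at 0 h from the first sampling at 0.5 h to the last at 48 h, but by very different amounts. FRE1 went from a low rank among all transcripts to their top 1% at 12 h. FOX1 and FTR1 started at moderate levels and rose about 10-fold. FRE1 peaked at 12 h, FOX1 and FTR1 at 24 h, and all 3 were lower at 48 h than at 24 h. The difference between 12 and 24 h was not called for any of the 3. For FOX1 and FTR1 it changed sign after median centring, to -0.22 and -0.27 on the log2 scale. The fall of FOX1 from 24 to 48 h was under 2-fold and not called. Levels are given as RPKM, read density per kilobase of transcript adjusted for the size of each library, so that genes of different length can be compared. The libraries held 13.2 M to 33.4 M reads, as recovered from the values.

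**Figure D1:**
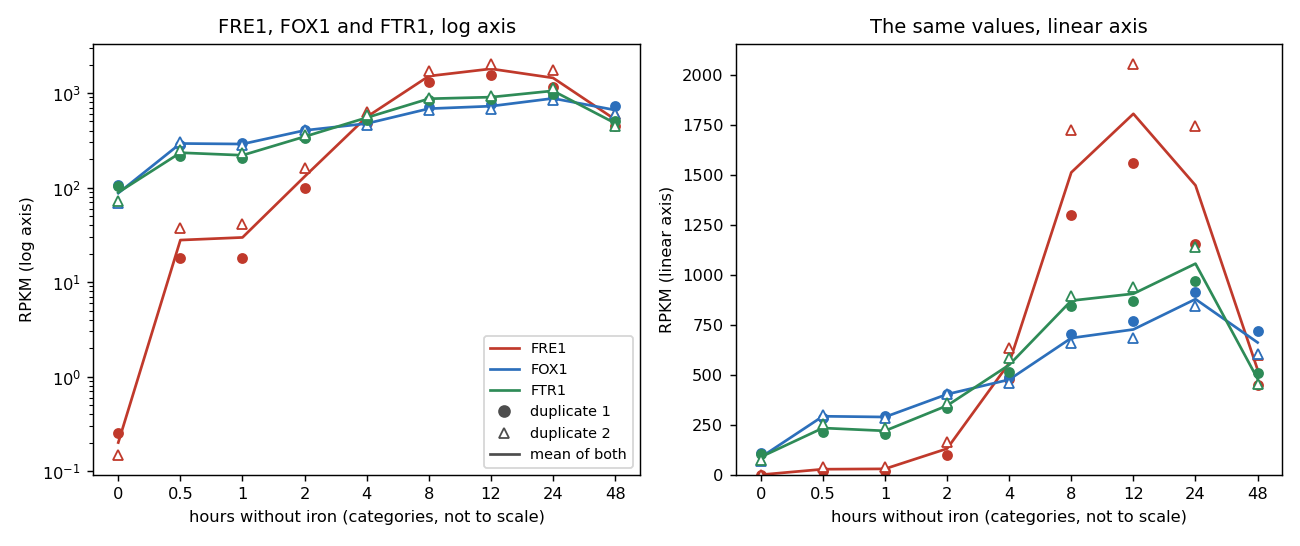
RPKM of FRE1, FOX1 and FTR1 at 9 times without iron, on a log axis (left) and a linear axis (right). Filled circles are duplicate 1, open triangles duplicate 2, and lines join the means of both. FRE1 starts near 0.2 RPKM, far below the other genes, and lies above both from 8 to 24 h.

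FRE1 (Cre04.g227400) is the ferric-chelate reductase that supplies ferrous iron at the cell surface. At 0 h it stood at 0.253 RPKM in duplicate 1 and 0.147 in duplicate 2, from 20 reads in each. The 95% Poisson intervals on those reads were 0.155 to 0.391 and 0.0899 to 0.227 RPKM, and cover counting error only. FRE1 therefore ranked 13980th and 14935th among the 17301 rows of the 0 h columns. At 0.5 h the values were 17.99 and 37.6 RPKM, and at 1 h 17.99 and 41.3, from 1296 to 2342 reads. The values reached 99.6 and 162 RPKM at 2 h, and 481 and 636 at 4 h. Each of these times lay above all earlier ones in both columns, with the exception of the plateau from 0.5 to 1 h. The level went on to 1297 and 1724 RPKM at 8 h and to 1558 and 2050 at 12 h. At 24 h it was 1151 and 1741, and at 48 h 451 and 599.9. The 12 h columns held the highest value of each duplicate, and even the lowest later value was more than 70 times that of the same duplicate at 0 h.

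At 12 h FRE1 averaged 1804 ± 348 RPKM (SD, n = 2) and ranked 123rd and 104th among all rows. It alone took 0.668% and 0.880% of the reads of those libraries. Within duplicate 1 the level had risen 71.0-fold by 0.5 h and 6146-fold by 12 h. Within duplicate 2 the folds were 256 and 13930, so the size of the fold depends strongly on the 20 reads in each 0 h column. Taken against the 12 h mean, FRE1 had reached 1.54% by 0.5 h, 7.24% by 2 h, 30.95% by 4 h and 83.8% by 8 h, and was back to 29.1% by 48 h. The first sampling thus held a large share of the rise on a log scale and little of it on a linear one.

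Changes were tested with limma on log2(RPKM + 1) over 13077 transcripts in 1 fit, with a term for each time and a block for the duplicate number. A change of at least 2-fold with an adjusted p below 0.05 was called. The log2 change of FRE1 from 0 h was 4.50 (0.5 h), 4.56 (1 h), 6.74 (2 h), 8.85 (4 h), 10.29 (8 h), 10.54 (12 h), 10.21 (24 h) and finally 8.76 (48 h), with an SE of 0.22. The limma adjusted p fell from 1.6e-07 at 0.5 h to 4.4e-12 at 48 h. FRE1 had the highest log2 change of all tested genes at all 8 times on this scale; with a pseudocount of 5 RPKM it ranked 3rd at 0.5 h and 4th at 1 h. FRE1 passed the filter of at least 1 RPKM in at least 3 times only through times after 0 h, so that it differed from 0 h is partly set by the filter. The filter did not bear in this way on FOX1 and FTR1, which were far above 1 RPKM throughout.

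Between neighbouring times FRE1 moved in 3 further steps after the first. It rose by 2.17 on the log2 scale from 1 to 2 h (limma adjusted p = 1.9e-04), by 2.11 from 2 to 4 h (1.8e-04) and by 1.43 from 4 to 8 h (2.2e-04). Between 0.5 and 1 h the change was 0.07 (SE 0.22, adjusted p = 0.881). From 8 to 12 h it was 0.26 (0.421) and from 12 to 24 h -0.34 (0.194), so neither step between 8 and 24 h passed the test. FRE1 then fell by 1.44 from 24 to 48 h (adjusted p = 6.8e-05).

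After 0 h, FRE1 was also the member whose duplicates differed most. Duplicate 2 was higher than duplicate 1 at all 8 times after 0 h, by 1.32 to 2.30 times, and lower at 0 h. At 0.5, 1 and 2 h the difference between duplicates was above that of 99.2%, 99.6% and 98.0% of tested genes, and at 24 h above that of 97.4%. Over all times duplicate 2 was higher by 0.55 on the log2 scale (SE 0.10, limma adjusted p = 9.1e-04), which is under 2-fold and so not called, as 0.252% of genes were. In both duplicates the order of the times was the same except that 8 and 24 h changed places.

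FOX1 (Cre09.g393150) is the multicopper ferroxidase that oxidizes ferrous iron before it is taken up. At 0 h its values were 107 and 68.0 RPKM in duplicates 1 and 2. They were 284 and 301 by 0.5 h, 296 and 282 by 1 h, then 403 and 402 by 2 h. All columns after 0 h lay above both 0 h columns, and the duplicates of 0.5 h and 1 h overlapped. By 4 h the values were 491 and 461 RPKM, by 8 h 706 and 661, and by 12 h 768 and 685. The highest values were 912 and 844 at 24 h, and 721 and 601 followed at 48 h. The 48 h columns spanned those of 8 h, so the late fall took FOX1 back to about the 8 h level.

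Averaged over duplicates, FOX1 went from 87.3 ± 27.3 RPKM (SD, n = 2) at 0 h to 878 ± 48.2 at 24 h. Its starting level was already 9.94% of the 24 h mean, and 0.5 h reached 33.3%. The log2 change from 0 h was 1.77 (0.5 h), 1.75 (1 h), 2.23 (2 h), 2.47 (4 h), 2.99 (8 h), 3.08 (12 h), 3.35 (24 h) and finally 2.94 (48 h), with an SE of 0.13. The limma adjusted p was 1.0e-06 at 0.5 h and below that at later times. FOX1 had 1 called step, the one from 0 to 0.5 h. Its change from 1 to 2 h was 0.48 (adjusted p = 0.0225), from 4 to 8 h 0.52 (0.00628) and from 24 to 48 h -0.41 (0.0127), each past the p threshold but under 2-fold. The other steps, between -0.02 and 0.27, had adjusted p from 0.0783 to 0.946. FOX1 thus took its largest step first and then moved in steps that were each under 2-fold.

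FTR1 (Cre03.g192050) is the iron permease. At 0 h it stood at 105 and 72.8 RPKM, by 0.5 h at 215 and 252, and by 1 h at 206 and 233. The 2 h values were 332 and 359.7, and the 4 h values 513 and 585. As with FOX1, 0.5 and 1 h overlapped, and both were above 0 h. FTR1 reached 845 and 895 RPKM by 8 h, 869 and 940.2 by 12 h, and 970.4 and 1140 by 24 h. It fell to 507 and 452 RPKM at 48 h, below all columns of 4 to 24 h.

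The mean of FTR1 went from 88.8 ± 22.6 RPKM (SD, n = 2) at 0 h to 1055 ± 120 at 24 h, and then to 479 ± 38.9 at 48 h, 45.4% of the peak. The log2 change from 0 h was 1.40 (0.5 h), 1.32 (1 h), 1.97 (2 h), 2.64 (4 h), 3.30 (8 h), 3.36 (12 h), 3.57 (24 h) and finally 2.44 (48 h), with an SE of 0.15. Its limma adjusted p was 9.9e-06 at 0.5 h and lower later on. Without duplicate 2 of 0 h, the change at 1 h was 0.997, just under 2-fold. Called steps were the first one and the fall of 1.13 from 24 to 48 h (adjusted p = 1.8e-05), which was 0.98 after median centring. The 3 steps between 1 and 8 h were 0.65, 0.66 and 0.67 (adjusted p = 0.0101, 0.00626 and 0.00309), all under 2-fold on their own. The steps from 8 to 12 h (0.06) and from 12 to 24 h (0.22) did not pass (adjusted p = 0.814 and 0.210).

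**Figure D2:**
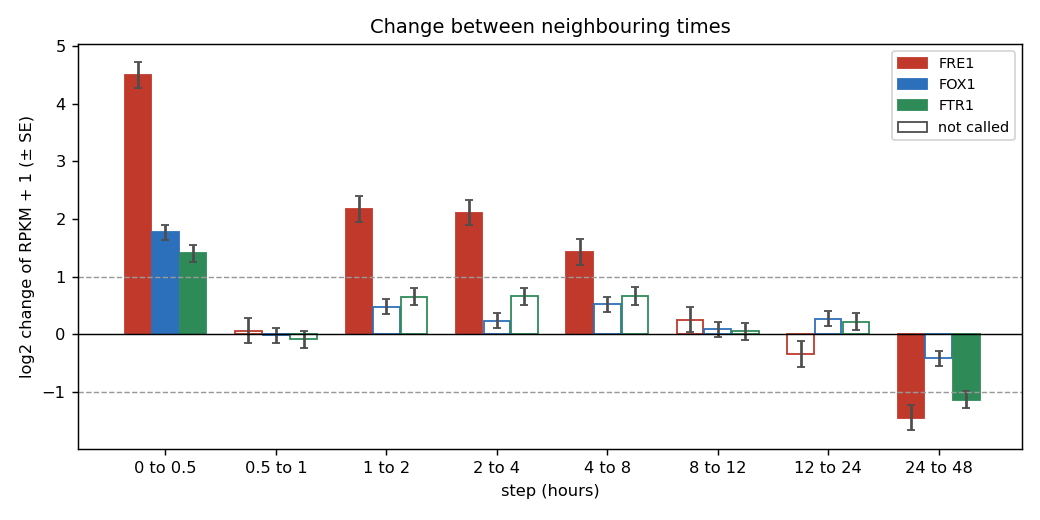
Log2 change of RPKM + 1 between neighbouring times for FRE1, FOX1 and FTR1, with the standard error as bars. Filled columns were called (at least 2-fold, with an adjusted p below 0.05), open ones were not, and dashed lines mark 2-fold. FRE1 has 4 called rises and 1 called fall, FTR1 1 of each, and FOX1 1 rise.

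All 3 genes were called higher at all 8 times, and the share of tested genes called higher was 5.64% (0.5 h), 8.38% (1 h), 9.44% (2 h), 5.99% (4 h), 7.36% (8 h), 10.1% (12 h), 14.8% (24 h) and finally 18.4% (48 h). For the steps the background was lower still: 0.115% of genes were called higher from 1 to 2 h, 0.291% from 2 to 4 h and 1.67% from 4 to 8 h, where FRE1 was the called member. These counts of genes are small and move with the settings: 15 genes from 1 to 2 h became 4 to 55 under other pseudocounts, and 38 from 2 to 4 h became 18 to 86. From 24 to 48 h, 16.1% of genes were called lower, among them FRE1 and FTR1. A test for any change over the 9 times passed in 98.6% of genes, so that the members passed it too says little about them. FOX1 ranked 25th to 128th and FTR1 19th to 400th by log2 change, depending on the time. These ranks move with the pseudocount. With 0.1 RPKM they were 93 to 473 for FOX1 and 68 to 1219 for FTR1, and with 5 RPKM 13 to 54 and 11 to 111. The 0 h duplicates call for care: FOX1 and FTR1 were lower in duplicate 2 by a log2 difference of -0.64 and -0.52, and only 2.26% and 4.61% of genes differed further in that direction.

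The members were also compared with each other. FRE1 rose more than FOX1 by 2.73 on the log2 scale at 0.5 h (95% interval 2.38 to 3.08) and by 7.47 at 12 h (7.12 to 7.82). Against FTR1 its excess was 3.09 at 0.5 h and 7.19 at 12 h. The size depends on the pseudocount, since FRE1 was below 1 RPKM at 0 h: the excess over FOX1 was 0.87 with 5 RPKM and 4.69 with 0.1 RPKM at 0.5 h, and 5.41 and 9.47 at 12 h. All 16 of these differences passed, with limma-moderated p adjusted over the 24 comparisons of 5.1e-10 at most. In levels, the ratio of FRE1 to FOX1 was 0.00238 and 0.00217 for duplicates 1 and 2 of 0 h. It was 0.980 and 1.38 for those of 4 h, 2.03 and 2.99 for 12 h, and 0.625 and 0.998 for 48 h. The reductase transcript was thus far scarcer than the ferroxidase transcript at first, outnumbered it from 8 to 24 h, and was below it again at 48 h, barely so in duplicate 2.

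FOX1 and FTR1 stayed close to each other, and their ratio is given here for 3 spans of time. From 0 to 2 h the ratio of FOX1 to FTR1 was 0.933 to 1.44 over 8 columns (median 1.20). Within that span it was 1.02 and 0.933 at 0 h, and between 1.12 and 1.44 from 0.5 to 2 h. From 4 to 24 h it was 0.728 to 0.956 (median 0.811), below all earlier columns except duplicate 2 of 0 h, which one 4 h and one 24 h column exceeded. At 48 h it was 1.42 and 1.33. Relative to 0 h, FOX1 had changed more than FTR1 by 0.43 on the log2 scale at 1 h (95% interval 0.22 to 0.65, limma-moderated p adjusted over the 24 comparisons 0.00105) and by 0.50 at 48 h (0.28 to 0.71, adjusted p = 3.5e-04). At 4 h the difference was -0.17 with an interval of -0.38 to 0.05. At 0.5 h the difference was 0.36 (adjusted p = 0.00370), and 0.0734 without the replicate block. At 2, 8, 12 and 24 h the differences were 0.26, -0.31, -0.28 and -0.22 with adjusted p of 0.0247, 0.00947, 0.0163 and 0.0433. Differences between members were judged on an adjusted p below 0.05 alone, with no fold minimum. These 4 no longer passed without the block or when 1 of several columns was left out. FTR1 stood above FOX1 in all 8 columns from 4 to 24 h, but the matching differences in change from 0 h were small and close to the error of the duplicates.

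**Figure D3:**
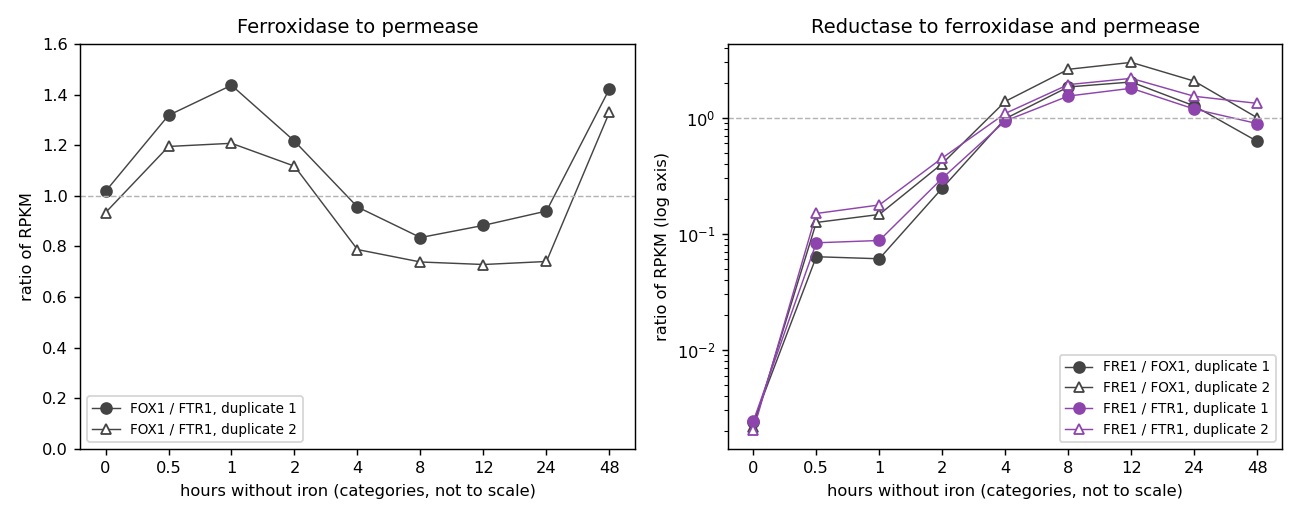
Ratios of RPKM in each column. The left panel shows FOX1 to FTR1 on a linear axis and the right panel FRE1 to FOX1 (dark) and to FTR1 (purple) on a log axis, with circles for duplicate 1 and triangles for duplicate 2. FOX1 to FTR1 lies between 0.728 and 0.956 from 4 to 24 h and above 1.3 at 48 h, and dashed lines mark equal levels.

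The 3 transcripts together took 0.0835% and 0.0549% of reads at 0 h in duplicates 1 and 2. By 12 h the share was 1.30% and 1.49%, by 24 h 1.23% and 1.49%, and by 48 h 0.702% and 0.689%. The larger part of that share at 12 h was FRE1.

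Other genes of iron transport did not all move with them. Of 7 such genes found by symbol, all of them tested, 2 were higher and 1 lower by 0.5 h; the counts were 3 and 1 by 12 h, then 1 and 1 by 48 h. Over all tested genes the share called lower was 3.48% (0.5 h), 4.95% (1 h), 7.18% (2 h), 11.8% (4 h), 13.9% (8 h), 18% (12 h), 6.39% (24 h) and finally 15.8% (48 h). The median log2 change of the 7 was 0.33 at 0.5 h against 0.14 over all tested genes, and 0.00 at 12 h against -0.14. FEA1 (Cre12.g546550), a periplasmic iron-assimilating protein, rose at all times, by 2.04 at 0.5 h and 3.99 at 24 h, from duplicates of 1029 and 240.1 RPKM at 0 h that differed more than those of FOX1 or FTR1. IRT1 (Cre12.g530400), a ZIP family transporter responsive to iron nutrition, rose from 0.835 RPKM to 33.2 at 24 h and was back at 0.658 at 48 h. IRT1 was called at 0.5 h, with unequal duplicates of 1.61 and 6.46 RPKM, but not at 1 h (log2 change 0.12). ZIP6 (Cre06.g299600), another transporter of the ZIP family, fell at all times, by 2.40 at 8 h. FOX2 (Cre12.g531200), a multicopper oxidase related in annotation to FOX1, fell by 1.23 at 2 h and 1.43 at 4 h. Its mean of 9.90 RPKM at the start became 19.2 by 48 h (log2 change 0.89, limma adjusted p = 5.0e-06), just under 2-fold. ZIP4 rose by 1.58 at 12 h, and NRAMP1 and ZIP2 were not called at any time. IRT1 and ZIP4, with means of 0.835 and 0.486 RPKM at 0 h, passed the filter only through later times. That these genes differed from 0 h is partly set by the filter. RBOL2, a respiratory burst oxidase and the only other reductase-like gene found by symbol, did not pass the filter. Its mean was 2.26 RPKM at 0 h, 0.69 at 0.5 h and below 1 RPKM at every later time, a change that was not tested.

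Genes of copper supply, on which a multicopper oxidase depends, moved in both directions. Of 6 tested, 0 were higher and 2 lower by 0.5 h, then 0 and 1 by 12 h, then 1 and 3 by 48 h. Called shares of all tested genes by 0.5 h were 5.64% higher and 3.48% lower. By 12 h these shares stood at 10.1% and 18%, and by 48 h they were 18.4% and 15.8%. Whether the counts for the 6 differed from these shares was not tested. A looser cut, an unadjusted p below 0.05 with no fold minimum, was met by 7798 of 13077 genes at 0.5 h. The median log2 change of the 6 was 0.08 (0.5 h), 0.36 (12 h) and -0.71 (48 h), where that of all tested genes was 0.14, -0.14 and 0.14. CTR2 (Cre10.g434350), a copper transporter of the CTR type, had a mean of 113 RPKM at the start, 14.1 by 0.5 h and 8.48 by 1 h (log2 change -3.59 at 1 h). It was lower at all 8 times while FOX1 was higher at all 8. CTR1 (Cre13.g570600), of the same type, fell by 1.17 at 0.5 h, 1.51 at 1 h and 1.13 at 48 h. COPT1 (Cre05.g247050) rose by 1.35 at 24 h and at 48 h. COX17, a copper chaperone of cytochrome oxidase assembly, fell by 1.47 at 48 h, and the chaperone ATX1 and the copper-response regulator CRR1 were not called at any time.

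Among genes of iron storage and iron sparing, more were called from 8 h on than before. Of 9 tested, 1 was higher at 0.5 and 1 h, 3 at 2 and 4 h, 6 at 8 and 12 h, and 5 at 24 and 48 h, and 1 was lower at 12 h and at 48 h. The background rose late too: 5.64% to 9.44% of all tested genes were called higher up to 4 h. Later shares were 7.36% (8 h), 10.1% (12 h), 14.8% (24 h) and 18.4% (48 h). Genes called lower made up 18% (12 h) and 15.8% (48 h). The 9 genes were not tested against these shares. The median of the 9 was 0.16 at 0.5 h and 1.69 at 12 h, against 0.14 and -0.14 over all tested genes. MSD3 (Cre16.g676150), a manganese superoxide dismutase, had 4.10 RPKM at 0 h and 3.80 at 0.5 h, was first called at 2 h, and stood at 699.8 RPKM at 24 h. The ferritin gene FER1 (Cre09.g387800) rose by 1.34 at 2 h and 2.44 at 24 h. FER2 (Cre13.g574500), the other ferritin gene, was first called at 8 h. It was highest at 48 h (log2 change 5.49), when FRE1, FOX1 and FTR1 were past their peaks. FER2 had a mean of 0.065 RPKM at 0 h and passed the filter only through times from 8 h on. That it differed from 0 h is thus partly set by the filter. Among genes for SOUL heme-binding proteins, SOUL1 (Cre06.g299700) was up by 3.37 at 12 h and SOUL2 (Cre13.g566850) was called at 0.5 and 1 h, by 1.49 and 1.18. FSD1 (Cre10.g436050), the iron superoxide dismutase, was lower at 48 h (log2 change -2.60). MSD1 rose by 1.65 and MSD2 by 1.69 at 12 h, and the heme oxygenase HMOX1 was not called at any time.

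**Figure D4:**
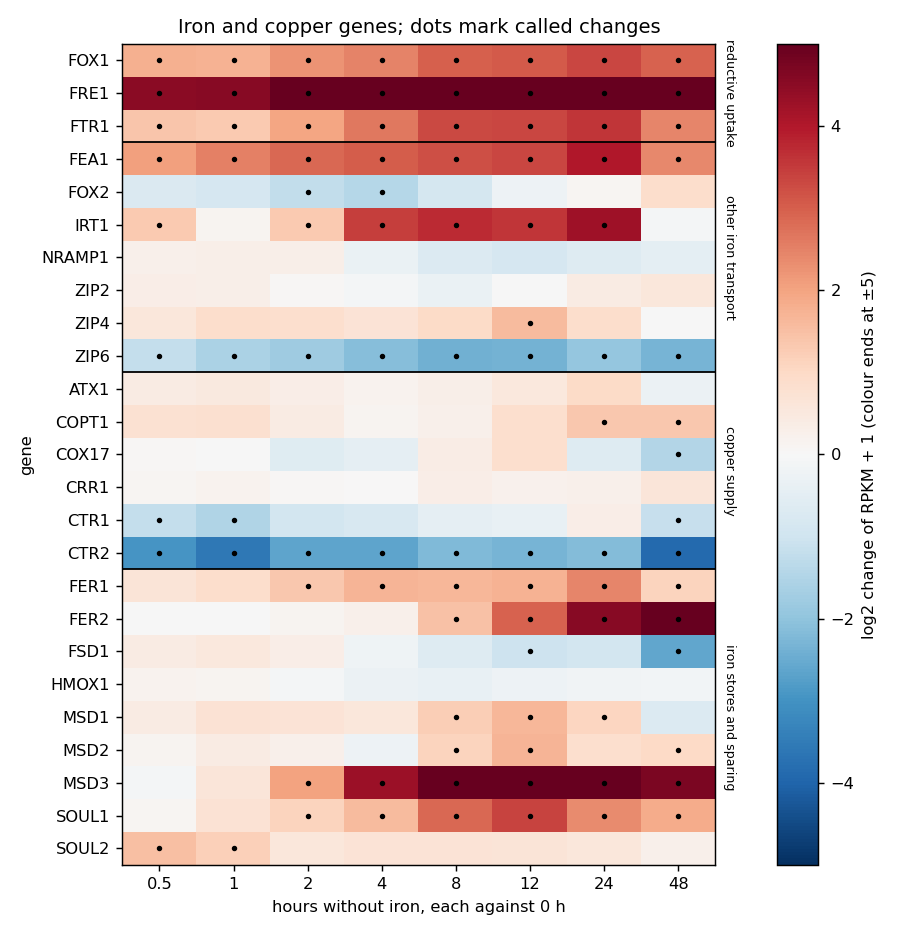
Log2 change of RPKM + 1 from 0 h for FRE1, FOX1, FTR1 and the tested genes of the iron transport, copper supply and iron stores lists, at 8 times. Red is higher and blue lower, the colour scale ends at a change of 5 in either direction, and dots mark called changes. The 3 uptake genes and FEA1 have a dot at every time, FRE1 lies past the end of the scale from 2 h on, and CTR2 and ZIP6 are lower throughout.

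Among 9867 tested genes whose mean varied at least 2-fold, the course of log2(RPKM + 1) over the 9 means was compared with that of each member. FTR1 was the gene most like FRE1 (Pearson r = 0.987) and FOX1 the next named member (0.978). The others named for FRE1 were Cre10.g451753 (0.980), Cre07.g319550 (0.976) and SSD3, a sterol sensing domain protein gene (0.934). For FOX1 they were Cre07.g312150 (0.986), Cre12.g546500 (0.984) and ELG3, an exostosin-like glycosyltransferase gene (0.965). For FTR1 they were Cre17.g712100 (0.994), Cre17.g727250 (0.989) and PDE24, a cyclic-nucleotide phosphodiesterase gene (0.967). These are descriptions over 9 means that share their libraries, and rows with no gene name were limited to 2 per member. Without that limit some named genes stood further down. SSD3 ranked 37th for FRE1, ELG3 14th and FTR1 15th for FOX1, and PDE24 17th and FOX1 20th for FTR1.

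Genes named for FTR1 were chosen on means that include 48 h, so their level at that time is partly set by the choice. Cre17.g712100 had a mean of 15.8 RPKM at the start, 351 by 24 h and 128 by 48 h, and Cre17.g727250 had 0.938, 13.3 and 5.16. Cre17.g727250 was among the first 5 for FTR1 under each of the 5 other ways of measuring likeness. Likeness was otherwise not firm, as judged on the first 5 genes by r with no limit on rows without a gene name. With ranks in place of Pearson's r, 0 of these 5 for FRE1 and 1 of 5 for FOX1 and for FTR1 were kept. Cre12.g546500, named for FOX1, rose from a mean of 85.9 RPKM to 809 by 24 h and stands next to FEA1 in the gene order of RefSeq assembly Chlamydomonas_reinhardtii_v5.5. Its 0 h duplicates, 101 and 70.5 RPKM, differed in the same direction as those of FOX1 and FTR1.

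**Figure D5:**
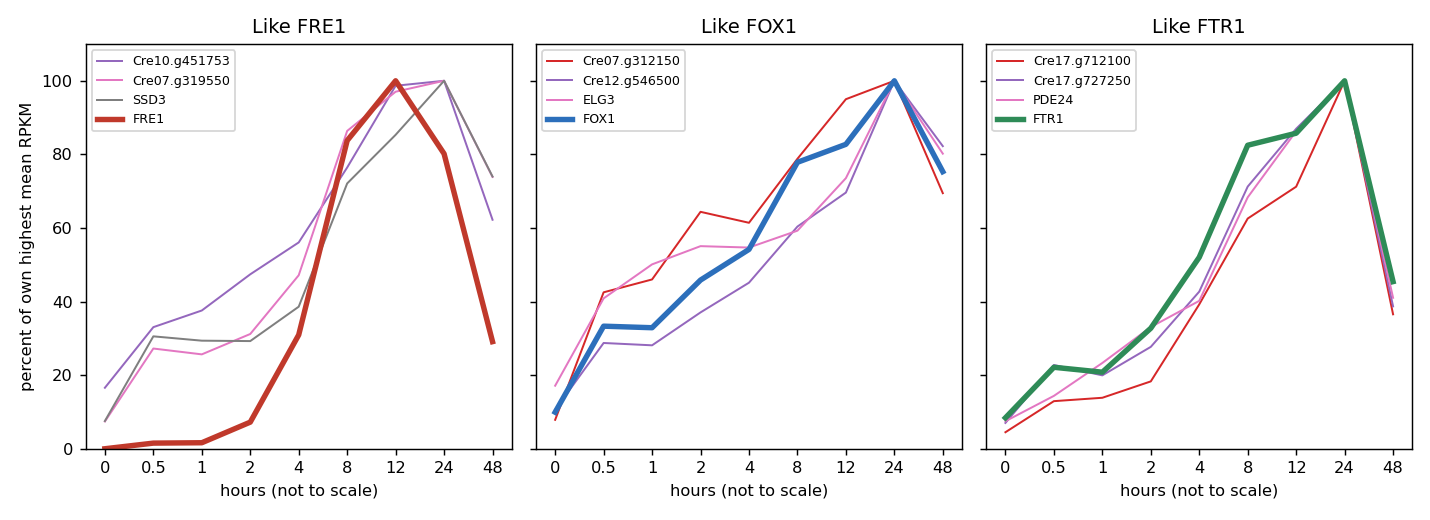
Mean RPKM of each member (thick line) and of the genes named as most like it (thin lines), each as a percent of its own highest mean, over 9 times. FRE1 stays under 8% of its peak until 2 h, while the genes named with it are already between 29% and 48% at that time. FTR1 and the 3 genes drawn with it are under 50% at 48 h. Members that were named as like another member are not drawn as thin lines in any panel.

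The genes on either side were looked at in the same RefSeq gene order, which places 2 genes on each side of each member. Of these 12 neighbours, 11 had a row and 8 were tested, and at most 2 were called at any time. Neither of the tested neighbours of FRE1, CCR4 (a Not-complex component gene) and Cre04.g227450, was called at any time. At 8 h, 1 neighbour was called higher and 1 lower, against 7.36% and 13.9% of all genes. Cre09.g393250, on the side of FOX1, rose by 1.44 at 0.5 h, from 0.739 to 3.76 RPKM, and was not called later. HSP70C, a heat shock protein gene that adjoins FOX1, fell by 3.57 at 48 h. Next to FTR1, Cre03.g192100 rose by 1.57 at 8 h, 1.81 at 12 h and 1.89 at 24 h, from 0.126 RPKM at 0 h to 3.23 at 24 h. Its level was low beside that of FTR1, and whether reads of FTR1 were counted in it was not tested. Cre03.g191950, on the other side, fell by 1.52 and 1.54 at 8 and 12 h. Cre09.g393250 and Cre03.g192100, the neighbours that rose, passed the filter only through times after 0 h. That they differed from 0 h is partly set by the filter.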

How the data were processed

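Per the labels, RNA of 9 times was sequenced on an Illumina HiSeq 2000. The authors deposited 1 table of RPKM values for 17301 transcripts in 18 columns, 2 per time, and 0 columns of values were left unused. The submitters' processing notes name Bowtie. Its version is not given in the sources used here, nor are the genome build, counting tool, strand or filters. The unit was read from the values, and the design had also allowed for counts.

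From the RPKM, transcript length and reads were recovered for 16467 transcripts (95.2%) (Python 3.11.15, pandas 2.3.3 with numpy 2.4.6). All their values were whole within 0.05 reads, plus 1e-06 of the value above 50000 reads, as the table stores few digits. The choice of lengths largely sets this. Recovered reads served only for depth, shares and Poisson intervals (scipy 1.17.1).

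Tests used limma-trend (limma 3.58.1, R 4.3.3) on log2(RPKM + 1) of the 13077 transcripts with a mean of at least 1 RPKM in at least 3 times, with time and duplicate number as factors and 8 residual degrees of freedom. This scale understates the change of low genes. Benjamini-Hochberg adjustment ran over all tested genes, and over 24 comparisons for differences between members. For those differences, the log2 ratio of a pair of members in each column was fitted with the same terms. Its variance was moderated outside limma, with the sum of the limma prior variances of both genes, as for independent genes. Duplicate numbers come from the column names: differences between duplicates correlated across genes at 0.31 to 0.73 (median 0.50) over 36 pairs of times. With no statement of separate cultures beyond the word duplicates, p-values measure only the spread between columns. Only the limma fit was tested on simulated data, with changes planted at 1 time and noise independent between columns.

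Named genes were the 3 members, all genes of 4 lists found by symbol, 5 like genes per member and 2 neighbours on each side. The 5 were those with the highest r, with at most 2 rows that had no gene name. RefSeq gene order was used for 12666 IDs that matched, without coordinates. The members and lists were chosen with earlier results of these data known. Alternatives were pseudocounts of 0.1, 0.5 and 5 RPKM, no filter, a filter of 5 RPKM, median centring, no replicate block, no trend of the prior, no fold minimum, an adjusted p below 0.01 and leaving out each column. No sequence was used.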

Additional observations from a re-analysis of the deposited data

How the results depend on the processing

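Of the changes of the 3 members from 0 h, 671 values under the alternatives kept direction and call and 1 did not: FTR1 at 1 h was 0.997 without duplicate 2 of 0 h (range leaving out 1 column 0.997 to 1.64). Many values, here and between neighbouring times, could hardly change. Leaving out a column of a time outside the comparison leaves the estimate as it was, and dropping the fold minimum cannot remove a call. Between neighbouring times 574 kept direction and call. In 7 the sign changed, all in steps that were not called. After median centring the step from 12 to 24 h was -0.22 in FOX1 and -0.27 in FTR1. Leaving out 1 column, the step from 0.5 to 1 h was -0.27 to 0.41 in FRE1 (-0.20 without duplicate 1 of 0.5 h), -0.15 to 0.11 in FOX1 (0.03 without duplicate 1 of 1 h) and -0.19 to 0.0104 in FTR1. The fall of FTR1 from 24 to 48 h was -0.98 after median centring and lost its call. With no fold minimum, 6 further steps passed: FOX1 0.48 from 1 to 2 h, 0.52 from 4 to 8 h and -0.41 from 24 to 48 h, and FTR1 0.65, 0.66 and 0.67 from 1 to 8 h. The size of FRE1's change depends on the pseudocount: with 5 and 0.1 RPKM it was 2.59 and 6.47 at 0.5 h, and 8.43 and 12.56 at 12 h.

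Without the replicate block, FOX1 minus FTR1 no longer had an adjusted p below 0.05 at 0.5 h (0.36), 2 h (0.26), 8 h (-0.31), 12 h (-0.28) and 24 h (-0.22). The block changed no call of a single member and no other difference between members. Leaving out 1 column, FOX1 minus FTR1 was 0.21 to 0.30 at 2 h, -0.36 to -0.27 at 8 h, -0.33 to -0.24 at 12 h and -0.31 to -0.14 at 24 h. It no longer passed in some fits at each of these times. The cause was not tested.

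The first 5 genes by Pearson r were taken for each member, here with no limit on rows without a gene name. Of these, rank correlation kept 0 for FRE1, 1 for FOX1 and 1 for FTR1, and leaving out 0 h kept 1, 0 and 2. A pseudocount of 0.1 kept 3 for each, duplicate 1 alone kept 4, 1 and 3, and duplicate 2 alone kept 3, 4 and 4.

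The background of called genes depends on the pseudocount. Genes higher than at 0 h numbered 737 at 0.5 h, 172 with 5 RPKM and 1661 with 0.1, and 1322 at 12 h, 541 and 2022. From 1 to 2 h, 15 genes rose, 27 after median centring, 7 without the replicate block and 30 without duplicate 2 of 1 h, and from 2 to 4 h 38, and 81 after centring. Genes higher at 24 h than at 0 h numbered 1930, 551 and 3145, and 913 after median centring, since the median change of all genes was 0.29 at that time.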
